A study of Mus musculus with 12 samples.

Results

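The mitochondrial ribosome is built from proteins encoded in the nucleus, and the 78 genes described here are those whose symbol starts with Mrpl or Mrps followed by a digit and which averaged at least 10 reads over 12 libraries of mouse heart mRNA. They were 78 of 17379 genes in the table. Every gene that matched by symbol also met the read threshold. The gene just inside it was Mrpl47, with a mean of 338 reads per library, and no matching gene lay outside. The hearts came from mice of a C57BL background at 6 months of age, in 4 groups of 3. The first carried MYBPC3Δ25bp, a deletion of 25 bp, in homozygous form (2 males, 1 female), the second the HRC variant S96A in heterozygous form (3 females), and the compound group both of these (3 females), while the nontransgenic mice (2 males, 1 female) carried neither. MYBPC3 is a myosin-binding protein of the sarcomere, and HRC binds calcium in the sarcoplasmic reticulum. Mybpc3 mRNA lay between 2460 and 2920 CPM (reads relative to the library's scaled total) in hearts with the deletion alone. It lay between 2900 and 3850 with the HRC variant, 3530 and 3920 in compound and 3520 and 4890 in nontransgenic hearts. Hrc mRNA lay between 939 and 1380 CPM in the 12 hearts. Since a short deletion or a changed residue leaves a countable transcript, neither checks the genotype. The labels do not say how many founder lines were used or that each library is another mouse, so p-values here speak of the spread between libraries, which may in part be technical. The libraries held 15615189 to 20581196 reads, and all 5 heart muscle markers (Myh6, Tnnt2, Actc1, Tnni3 and Ryr2) had reads in every library.

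The mitochondrial ribosome translates the few proteins encoded in mitochondrial DNA, which are all subunits of the respiratory chain and ATP synthase. Its small subunit decodes the mRNA and its large subunit joins the amino acids. Some of its proteins descend from bacterial ribosomal proteins, and others were gained in mitochondria. Heart muscle depends on oxidative phosphorylation, and inherited defects of several of these proteins cause cardiomyopathy in humans, among them MRPL3, MRPL44, MRPS14 and MRPS22. Of the 78 genes, 16 encode small-subunit proteins with a bacterial counterpart and 9 small-subunit proteins without one, while 29 and 21 encode large-subunit proteins with and without one. Mrps18a and Mrps18b are further relatives of bacterial S18 that sit elsewhere in the ribosome, in the large and the small subunit. Mrps36, named after the ribosome, encodes a subunit of the 2-oxoglutarate dehydrogenase complex.

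RefSeq promoter sequences of build GRCm38.p6 were matched for 69 of the 78 genes, with 75 annotated start sites, and each window ran from 250 bases before to 50 bases after the start. The 5 stretches printed here are the bases before the start site of the gene whose compound hearts lay below all others (Mrps6), of the pair of genes that led the higher ones with the MYBPC3 deletion (Mrpl53, Mrpl27), of a gene with an NRF1 match (Mrpl9), and between a pair of genes that face away from each other (Mrpl46 and Mrps11). Capitals mark GGGCGG, the GC box bound by SP1, in Mrps6 and Mrpl46; CCGGAAG, the core bound by ETS factors such as GABPA, in Mrpl53 and Mrpl27; and the palindrome bound by NRF1 in Mrpl9, each on either strand.
Mrps6 (chr16:92058186-92058335, plus strand): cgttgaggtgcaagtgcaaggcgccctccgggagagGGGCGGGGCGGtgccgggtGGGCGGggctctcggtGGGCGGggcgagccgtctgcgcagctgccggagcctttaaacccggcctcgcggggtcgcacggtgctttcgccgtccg
Mrpl53 (chr6:83109008-83109107, plus strand): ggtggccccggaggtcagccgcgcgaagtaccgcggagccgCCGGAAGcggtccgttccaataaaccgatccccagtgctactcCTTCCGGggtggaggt
Mrpl27 (chr11:94653691-94653790, plus strand): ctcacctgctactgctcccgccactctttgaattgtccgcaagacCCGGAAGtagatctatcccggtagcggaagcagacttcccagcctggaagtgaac
Mrpl9 (chr3:94443236-94443335, plus strand): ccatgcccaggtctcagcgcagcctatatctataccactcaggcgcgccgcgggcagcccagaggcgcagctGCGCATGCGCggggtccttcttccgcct
Mrpl46 (chr7:78783090-78783130, minus strand): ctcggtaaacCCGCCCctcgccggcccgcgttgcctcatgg

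The ETS core was in 26 of the 75 windows (34.7%), against 15.9% of the 14051 windows of genes tested and 8.86% of all 32851 windows. AAGATGGCG, the core bound by YY1, was in 8 of 75 windows (10.7%) and in 2.66% of those of genes tested. The NRF1 sequence was in 3 windows, those of Mrpl9, Mrpl32 and Mrpl39 (4.0%, against 1.86%). The GC box was in 52.0% of the windows, against 60.4% of those of genes tested, the E-box CACGTG in 9.33% against 9.55%, CCAAT in 40.0% against 37.2% and TATAAA in 6.67% against 7.45%. None of these motifs contains another, although the ETS and YY1 cores can share bases at their ends, and a match is a description of the sequence, not a bound site. The median GC content was 58.7% in windows of the 78 genes and 60.3% in those of genes tested.

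The genes are spread over 17 chromosomes, with 11 on chromosome 11 and 8 on chromosome 17. By the deposited strands and ends, their start sites often lay back to back with that of a neighbour on the other strand. For 15 of 78 (19.2%) such a neighbour lay within 1000 bases, against 6.84% of 17142 genes with coordinates. Mrpl46, a large-subunit gene, and Mrps11, a small-subunit gene, are the pair in which both are ribosomal, with 41 bases between their starts. Of the 78 genes, 35 overlap another gene, by the deposited strands 18 of them on the same strand and 20 on the opposite one (some do both). Mrps12 and Mrpl48, whose deposited strand differs from that of RefSeq, are counted among the 18. Left out of these counts were 156 rows, none of them of the 78 genes, whose start or end lay over 100000 bases from that of the same gene in RefSeq. The deposited rows put Mrps12, Mrps22, Mrps24 and Mrpl48 on the plus strand, while their RefSeq promoters lie on the minus strand. For 41% of the 78 genes the deposited start and end both equalled those of RefSeq, so these counts are approximate. The labels do not state whether counting used strand, so reads of an overlapping gene and its partner cannot be told apart here.

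Levels per transcript length spanned 129-fold in nontransgenic hearts, in the authors' FPKM (fragments per kilobase of transcript, scaled to library size). Mrpl42, a large-subunit protein gained in mitochondria, stood highest, with 792 ± 73.0 FPKM in MYBPC3 deletion hearts, 703 ± 36.7 in HRC variant hearts, 713 ± 28.8 in compound hearts and 726 ± 101 in nontransgenic hearts (SD, n = 3). It alone made up 11.3% of the summed FPKM of the 78 genes in nontransgenic hearts. The next were Mrps21, the counterpart of bacterial S21, with 279 ± 32.5 FPKM in compound and 302 ± 60.9 in nontransgenic hearts, and Mrpl12, which forms the stalk that recruits translation factors, with 230 ± 15.5 and 297 ± 44.5. Mrpl30 had 259 ± 17.2 FPKM in compound and 290 ± 60.4 in nontransgenic hearts, and Mrpl4 168 ± 2.52 and 202 ± 40.3. Mrps21, Mrpl12 and Mrpl30 lay within their SDs of each other in nontransgenic hearts, so their order is not settled. At the other end were Mrpl17 (7.42 ± 0.632 FPKM in compound and 7.69 ± 1.03 in nontransgenic hearts), Mrpl19 (6.75 ± 0.125 and 7.04 ± 0.883) and Mrps25 (5.19 ± 0.728 and 5.63 ± 1.65). Across the 78 genes, level and transcript length had a Spearman rho of -0.64, a description over genes that share the same libraries and whose FPKM contains the length.

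Between these ends, the median gene had 53.8 FPKM with the MYBPC3 deletion, 50.6 with the HRC variant, 50.2 in compound and 54.5 in nontransgenic hearts. The large subunit genes (51, with Mrps18a) had medians of 55.9, 55.5, 56.2 and 56.0 FPKM in the same groups, and the small subunit genes (26, with Mrps18b) 51.2, 42.1, 41.8 and 45.7. Of the genes with inherited heart disease in humans, Mrpl3 had 58.8 ± 7.91 FPKM in compound and 60.4 ± 5.33 in nontransgenic hearts, Mrpl44 had 40.7 ± 0.783 and 39.5 ± 1.69, Mrps14 had 24.2 ± 2.28 and 24.6 ± 2.88, and Mrps22 had 17.4 ± 1.21 and 18.4 ± 2.60. Each of these 4 differed by less than 1 SD of the nontransgenic hearts. Mrps5, whose loss in mouse heart muscle impairs the heart, had 33.0 ± 1.37 FPKM in compound and 35.3 ± 2.70 in nontransgenic hearts. The relatives of bacterial S18 differed among themselves: in compound and nontransgenic hearts Mrps18a had 106 ± 4.86 and 123 ± 25.1 FPKM, Mrps18b 45.7 ± 3.53 and 58.6 ± 14.4, and Mrps18c, which holds the S18 place in the small subunit, 53.0 ± 7.15 and 54.4 ± 12.2. Mrpl58, a peptidyl-tRNA hydrolase built into the large subunit, had 75.2 ± 6.22 FPKM in compound and 85.5 ± 21.2 in nontransgenic hearts. Of the small-subunit genes Mrps7, Mrps12 and Mrps34, the compound means were 59.4 ± 3.54, 56.9 ± 3.65 and 68.1 ± 4.93 FPKM and the nontransgenic ones 68.0 ± 14.3, 68.0 ± 14.3 and 87.7 ± 27.4. Mrpl45, which anchors the ribosome to the inner membrane, had 39.8 ± 3.39 FPKM in compound and 42.0 ± 5.88 in nontransgenic hearts. Of the genes named from Mrpl3 to Mrpl45 here, the nontransgenic SD was the larger in all but Mrpl3. Mrps36, the dehydrogenase subunit, had 167 ± 2.31 FPKM in compound and 201 ± 36.4 in nontransgenic hearts.

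**Figure D1:**
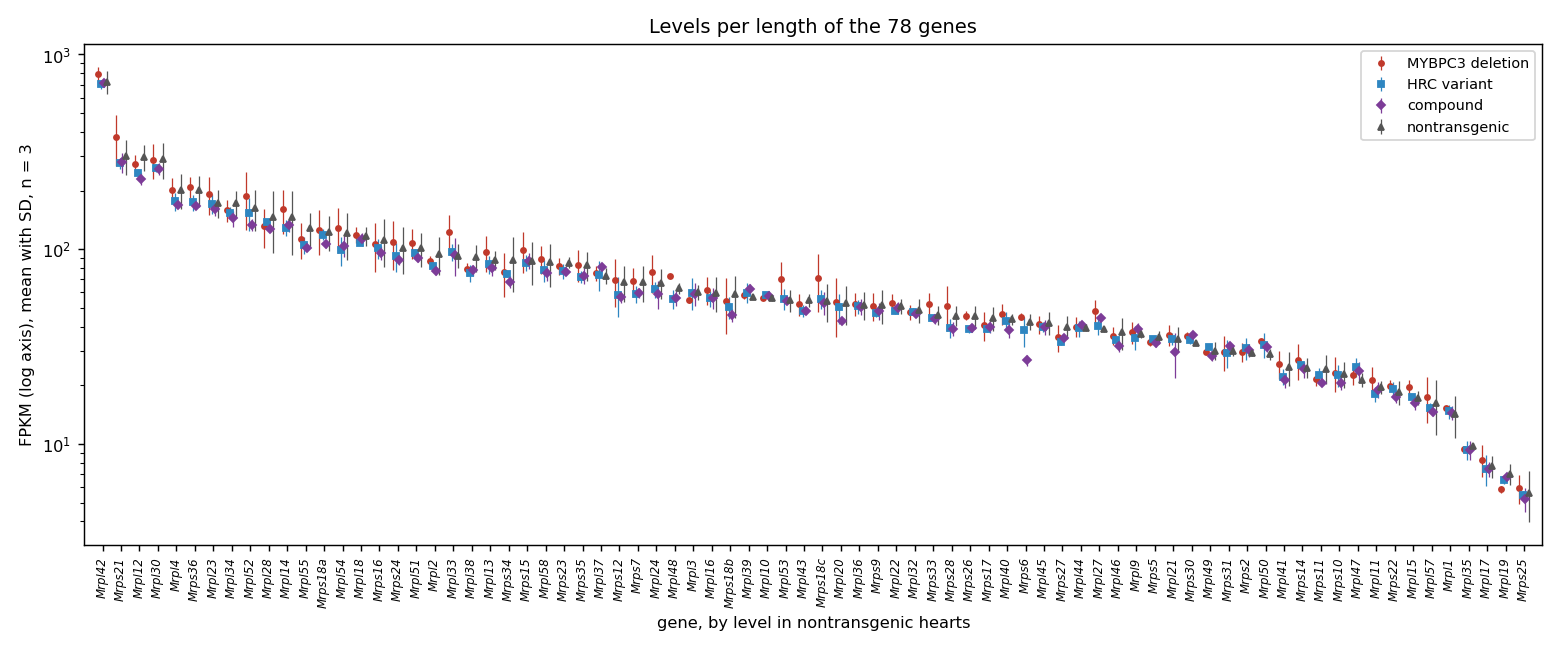
Group mean FPKM (log axis) of each of the 78 genes with the SD over 3 hearts, ordered by the level in nontransgenic hearts, for the 4 groups. Mrpl42 stands above the rest near 726 FPKM, Mrps25 and Mrpl19 are lowest near 5.63 and 7.04, and the compound mean of Mrps6 (26.9) lies apart from those of the other groups.

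The 78 genes moved together from heart to heart, and this common movement was larger than any difference between groups. Their summed CPM, with library totals scaled by edgeR's TMM method, was 5690, 6880 and 5000 in deletion hearts, 5250, 4840 and 5760 with the HRC variant, 5060, 5460 and 5280 in compound hearts and 7600, 5270 and 5120 in nontransgenic hearts. Nontransgenic replicate 1 and MYBPC3 deletion replicate 2, both from males, stood highest, and the ranges of all 4 groups overlapped. In these hearts 76 and 67 of the 78 genes lay above their own mean over 12 libraries, with a mean log2 CPM relative to that mean of 0.43 and 0.29, and 50 and 20 of the 78 genes had their highest value there. In the other 10 libraries the mean lay between -0.19 and 0.06. Small-subunit and large-subunit genes moved alike, at 0.47 and 0.40 in nontransgenic replicate 1 and at 0.32 and 0.28 in MYBPC3 deletion replicate 2.

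The movement was shared with other short, abundant transcripts. In MYBPC3 deletion replicate 2 the cytosolic ribosomal protein genes averaged 0.54 and the genes of the respiratory chain and ATP synthase 0.49, and in nontransgenic replicate 1 they averaged 0.36 and 0.48. In the same libraries the change of a gene ran against its transcript length (Spearman rho over tested genes -0.47 and -0.41), while rho lay between -0.30 and 0.45 in the other 10. When the length trend of each library was removed, the mean of the 78 genes was -0.05 in the first of these and 0.17 in the second, against -0.17 to 0.10 in the other 10. Red cell markers (all 5 with reads in every library) summed to 6490 and 6820 CPM in the same libraries, against 2360 to 4790 in the other 10. B-cell markers (all 5 with reads in every library) summed to 73.8 CPM in MYBPC3 deletion replicate 2, to 44.7 in nontransgenic replicate 2, to between 3.48 and 9.35 in the other 10, nontransgenic replicate 1 among them. The part of these in the result was not tested. In whole hearts, fewer cells of a type and less RNA per cell cannot be told apart.

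**Figure D2:**
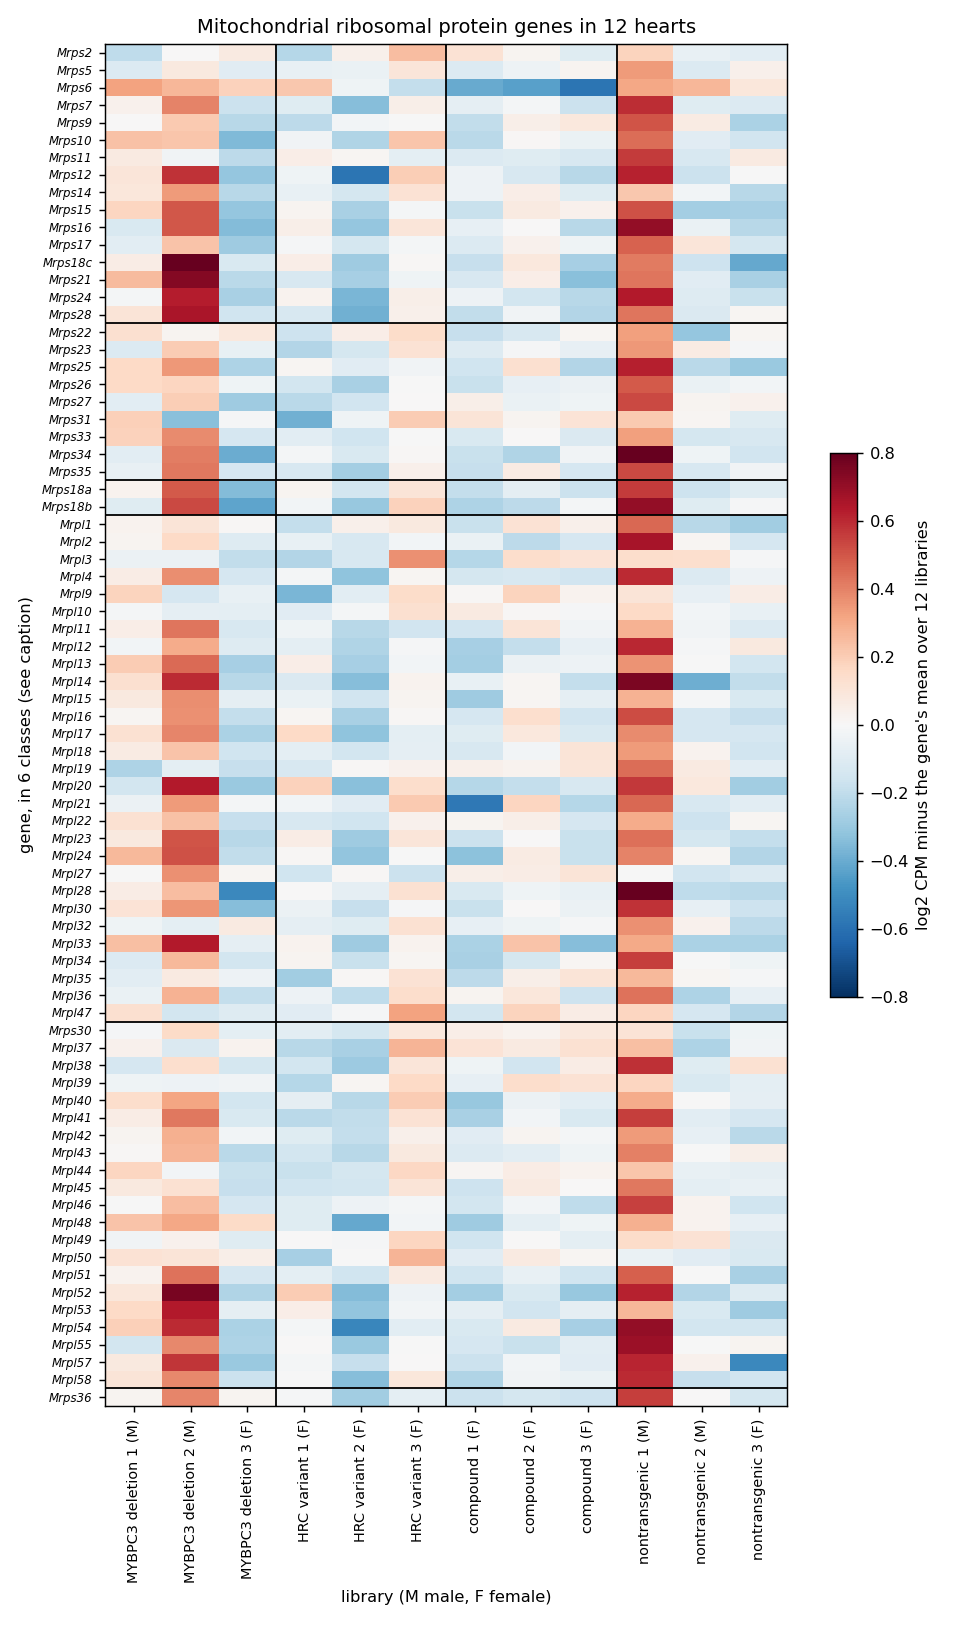
Log2 CPM of each gene minus its mean over the 12 libraries (color, from -0.8 to 0.8), libraries in columns by group with the sex of the mouse. From the top, the blocks are small-subunit genes with and without a bacterial counterpart, Mrps18a and Mrps18b, large-subunit genes with and without one, and Mrps36; nontransgenic replicate 1 and MYBPC3 deletion replicate 2 are red nearly throughout, while Mrps6 is blue in the 3 compound hearts.

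**Figure D3:**
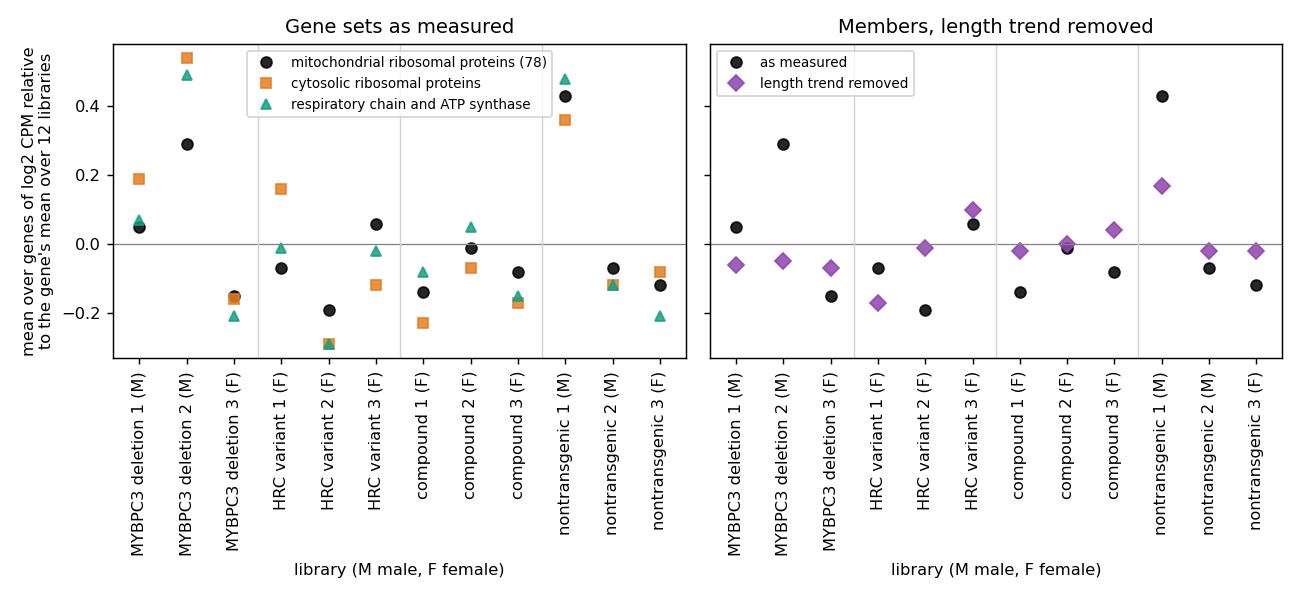
Mean log2 CPM relative to each gene's 12-library mean, per library, for the 78 genes, cytosolic ribosomal proteins and the respiratory chain (left), and for the 78 genes before and after each library's length trend was removed (right). The 78 genes reach 0.43 in nontransgenic replicate 1 and 0.29 in MYBPC3 deletion replicate 2 as measured, and 0.17 and -0.05 without the length trend.

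How far a gene varied over all 12 libraries also went with its length (Spearman rho of coefficient of variation and length -0.54 over the 78 genes, as a description). The steadiest were Mrpl10, with a coefficient of variation of 5.63%, and Mrps30, with 7.19%. Mrpl10 had 89.8, 86.4 and 86.3 CPM in deletion hearts, 85.4, 90.1 and 99.3 with the HRC variant, 95.5, 91.8 and 90.2 in compound and 101, 89.5 and 87.4 in nontransgenic hearts. The most variable were Mrpl52, at 28.5%, and Mrpl14, at 27.6%. Mrpl52 had 56.9, 90.4 and 45.1 CPM with the deletion, 61.6, 42.0 and 52.0 with the variant, 44.2, 49.0 and 43.3 in compound and 81.9, 45.4 and 49.6 in nontransgenic hearts. Its highest values were again those of the libraries in which the whole set was high.

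The first comparison set hearts with the MYBPC3 deletion against nontransgenic hearts. No gene of the 78 differed by edgeR's quasi-likelihood test with sex as a covariate (0 at a Benjamini-Hochberg adjusted p under 0.05 over all 13849 genes tested; background 0% called), and DESeq2 also called 0 of the 78 (background 0.595%). At an unadjusted edgeR p under 0.05, 1 was lower and 0 higher, against 5.22% and 2.94% of all genes. The median log2 difference was -0.03, with 31 genes higher and 47 lower by sign, and that of all genes was 0.00. For 70 of the 78 the interval of 1.96 SE either side lay within a 1.5-fold change, and for all 78 within a doubling or halving. That interval takes its multiplier from the normal distribution, so with so few libraries it is narrower than a 95% interval. All 3 deletion hearts lay above all 3 nontransgenic hearts for 2 genes (Mrpl50, and Mrpl27 by less than the rounding of the values given here) and below them for 1 (Mrpl3), against 4.9% and 5.5% of all genes. Mrpl19, the counterpart of bacterial L19, had 27.2, 30.5 and 28.4 CPM with the deletion, against 44.0, 34.0 and 30.4 CPM in nontransgenic hearts. Those groups met at 30.5 and 30.4 CPM, and its log2 difference of -0.32 (SE 0.13) had an edgeR adjusted p of 0.570 and was the 1 with an unadjusted p under 0.05. Mrps27, a pentatricopeptide protein of the small subunit, had 60.4, 73.4 and 52.6 CPM against 92.4, 65.0 and 65.7, a log2 difference of -0.26 (SE 0.14). Among those higher by sign, Mrpl53 had 35.8, 49.9 and 30.5 CPM with the deletion against 38.5, 29.4 and 26.2 (log2 difference 0.30, SE 0.15), and Mrpl27, which lies near the site of peptide bond formation, 30.4, 39.3 and 30.8 CPM against 30.4, 27.4 and 28.2 (0.22, SE 0.13). Their edgeR adjusted p were 0.657 for Mrps27, 0.654 for Mrpl53 and 0.676 for Mrpl27.

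With the HRC variant against nontransgenic hearts, edgeR called 0 of the 78 (background 0%), and DESeq2 0 (background 0.181%). At an unadjusted edgeR p under 0.05 there were 0 higher and 0 lower, against 3.29% and 2.95% of all genes. The median log2 difference was 0.06, with 53 higher and 25 lower by sign. The 3 variant hearts lay above all nontransgenic hearts for 0 genes and below them for 1, Mrps27, against 4.18% and 3.76% of all genes. Mrpl57 had 35.5, 31.5 and 36.0 CPM with the variant, against 54.7, 36.7 and 25.0 CPM in nontransgenic hearts. Its raw mean was thus lower with the variant, while the fitted log2 difference, with sex in the model, was 0.38 (SE 0.20; edgeR adjusted p = 0.853), and without the sex term -0.17. Mrps14 had 27.1, 25.6 and 30.7 CPM against 32.8, 27.8 and 24.2, with log2 differences of 0.24 (SE 0.16) with and -0.02 without the sex term. Lower by sign in both fits were Mrpl38, of the central protuberance, with 97.4, 88.3 and 116 CPM against 162, 101 and 117 (-0.23, SE 0.20), and Mrpl12, with 217, 194 and 228 CPM against 347, 228 and 242 (-0.19, SE 0.19).

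Compound against nontransgenic hearts likewise gave 0 of the 78 by edgeR (background 0%) and 0 by DESeq2 (background 0.275%), with 1 lower and 0 higher at an unadjusted edgeR p under 0.05, against 4.22% and 2.14% of all genes. The median log2 difference was 0.06, with 48 higher and 30 lower by sign, and for 63 of 78 the interval of 1.96 SE either side lay within a 1.5-fold change. In CPM, all 3 compound hearts lay below all 3 nontransgenic hearts for 6 genes (Mrpl4, Mrpl12, Mrpl43, Mrpl55, Mrps6 and Mrps36, chosen, like the others named for such gaps, after their values were seen) and above them for 1, Mrpl27, against 10% and 8.79% of all genes. Mrpl12 had 190, 201 and 219 CPM in compound hearts against 347, 228 and 242 (log2 difference -0.25, SE 0.19; edgeR adjusted p = 0.919). Higher by sign in the fit with sex were Mrpl57, with 31.8, 35.2 and 33.6 CPM against 54.7, 36.7 and 25.0 (0.35, SE 0.20; -0.21 without the sex term), and Mrps14, with 27.5, 29.3 and 26.5 CPM against 32.8, 27.8 and 24.2 (0.24, SE 0.16; -0.03 without the sex term).

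Against the single mutants, edgeR called 0 of the 78 in compound hearts (background 0% in both comparisons). DESeq2 called 0 as well, with backgrounds of 0.0433% against the deletion and 0.311% against the HRC variant. Against the MYBPC3 deletion the median log2 difference was 0.08, with 59 higher and 19 lower by sign, and 1 gene in each direction had an unadjusted edgeR p under 0.05 (background 2.34% higher and 3.39% lower). Mrpl19 was the 1 higher, with 33.2, 32.9 and 34.5 CPM in compound hearts against 27.2, 30.5 and 28.4 with the deletion alone, groups that did not overlap (log2 difference 0.35, SE 0.16; edgeR adjusted p = 0.862). Mrpl28 had 123, 131 and 128 CPM against 139, 159 and 93.4 (0.42, SE 0.24; -0.04 without the sex term). Mrpl48, of the central protuberance, had 44.2, 51.1 and 52.6 CPM against 63.1, 66.8 and 59.9, again with no overlap (-0.25, SE 0.16; edgeR adjusted p = 0.916). All 3 compound hearts lay above all 3 deletion hearts for 3 genes and below them for 5, against 11.5% and 13.7% of all genes. Against the HRC variant the groups were all female, so the sex term does not enter: the median was -0.01, with 35 higher and 43 lower by sign, and for 74 of 78 the interval of 1.96 SE either side lay within a 1.5-fold change. At an unadjusted edgeR p under 0.05, 0 were higher and 1 was lower, Mrps6 (background 2.38% and 3.91%), and the groups did not overlap for 1 higher gene, Mrpl27, and 2 lower ones, Mrps6 and Mrps11 (background 6.2% and 6.22%). Mrpl27 had 31.5, 31.7 and 32.7 CPM in compound hearts against 27.3, 30.7 and 27.1 with the variant (0.17, SE 0.13), and Mrpl9 56.9, 64.1 and 57.8 against 43.9, 53.3 and 62.5 (0.16, SE 0.14; 0.04 without HRC variant replicate 1). Mrpl49 had 44.3, 49.6 and 46.7 CPM against 49.6, 49.0 and 55.8 (-0.13, SE 0.11). The interaction, that is, how far compound hearts depart on the log2 scale from both single-mutant differences added up, gave 0 calls by edgeR (background 0%) and 0 by DESeq2 (background 0.864%), with 1 of 78 in each direction at an unadjusted edgeR p under 0.05 (background 4.49% and 4.05%) and a median of 0.04. Comparisons with nontransgenic hearts share those 3 hearts, and those with compound hearts share the compound ones.

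**Figure D4:**
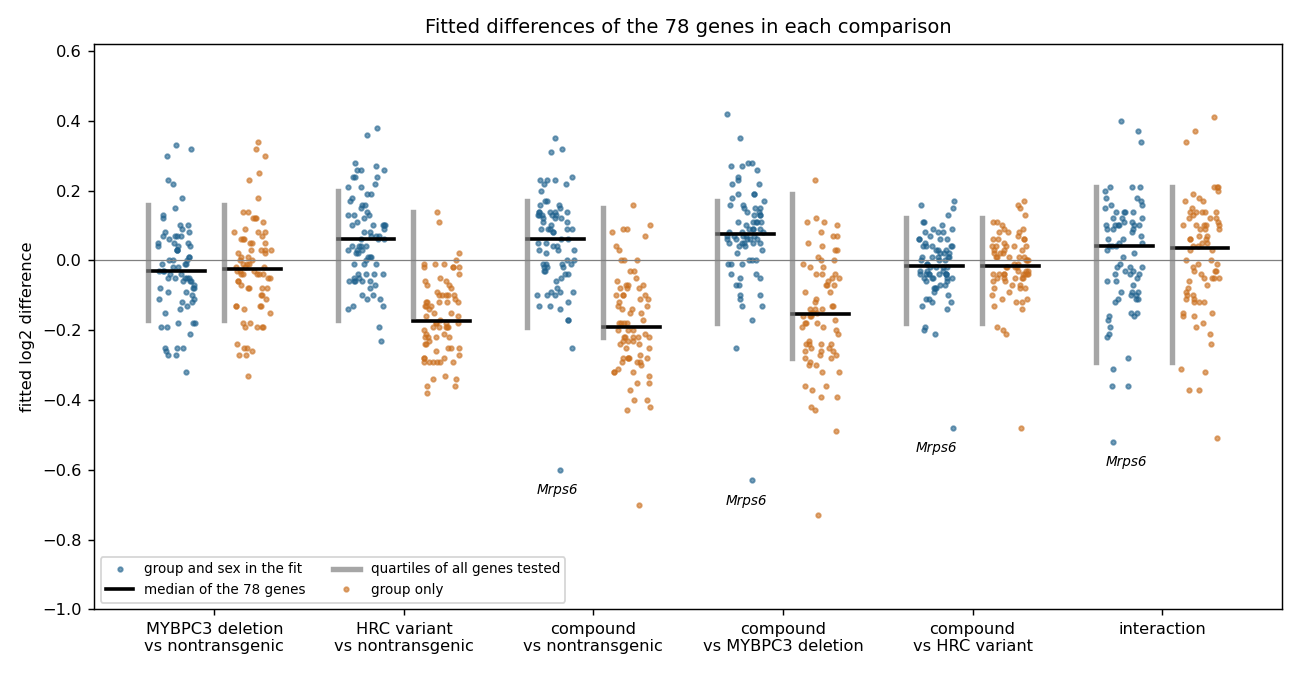
Fitted log2 difference of each of the 78 genes (points) in the 5 comparisons and the interaction, with group and sex in the fit (blue) or group only (orange), the median of the 78 genes (black bar) and the quartiles of all genes tested (grey bar). Medians for the HRC variant and the compound hearts against nontransgenic hearts are 0.06 and 0.06 with the sex term and -0.18 and -0.19 without it, and Mrps6 lies below the other genes in each comparison of compound hearts and in the interaction.

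Within groups, the mean log2 CPM of the 78 genes had a pooled SD of 0.2 between replicates, larger than the median difference in any of the 6 genotype contrasts. By group the SD was 0.22 with the deletion, 0.125 with the HRC variant, 0.0651 in compound and 0.304 in nontransgenic hearts. It is a spread of single libraries with sex left in, while the medians compare groups with sex in the fit, so these are unlike measures. The direction of the set in 3 of the comparisons rested on the sex term. Without it, 4 genes were higher and 74 lower with the HRC variant than in nontransgenic hearts (median -0.18), 8 higher and 70 lower in compound than in nontransgenic hearts (-0.19), and 14 higher and 64 lower in compound hearts than with the deletion (-0.16), again with 0 of 78 called by edgeR. The sex term was estimated in the deletion and nontransgenic groups, that is, between 2 females and 4 males. In it, 76 of the 78 genes were lower in females, by a median log2 difference of -0.32, and 32 of 78 were lower and 0 higher at an unadjusted edgeR p under 0.05, against 7.37% and 6.89% of all genes. None passed adjustment by edgeR (0 of 78; background 0.0578%). The 2 libraries in which the set was highest are both male: without them the female minus male median was -0.11, with 65 of 78 lower and 1 at an unadjusted p under 0.05. Sex, the short-transcript shift of these 2 libraries and the individual mice cannot be told apart here.

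Mrps6, which encodes the small-subunit counterpart of bacterial S6, had the largest fitted difference of the 78 genes in each comparison of compound hearts. It had 33.3, 32.0 and 30.3 CPM in deletion hearts, 30.9, 26.0 and 23.4 with the HRC variant, 20.1, 19.7 and 17.7 in compound hearts and 33.0, 32.0 and 28.3 in nontransgenic hearts. The compound hearts lay below all 9 other hearts for this gene alone of the 78 (1.28%), a share no higher than the 1.29% of all genes. For 0 of the 78 they lay above all 9 (background 1.18%). The Mrps6 mean of compound hearts was 61.7% of that of nontransgenic hearts. The edgeR log2 difference was -0.60 (SE 0.15) against nontransgenic hearts, -0.63 (SE 0.15) against the deletion, -0.48 (SE 0.13) against the HRC variant and -0.52 (SE 0.18) as the interaction, each with an unadjusted p under 0.05. With edgeR's adjustment over all genes these did not pass (adjusted p = 0.536, 0.862, 0.559 and 0.563), nor with DESeq2 (adjusted p = 0.102, 0.135, 0.131 and 0.262). In the authors' deposited table, where q-values come from DESeq2 comparisons of pairs of groups per the file headers, Mrps6 had a q of 0.00159 for compound against nontransgenic hearts, 0.000195 against the deletion and 0.388 against the HRC variant. It was the 1 gene of the 78 with a q under 0.05 in that table in each of the first 2 (background 2.43% and 4.24%), and 0 of the 78 had one in the other 3 comparisons, those of the deletion with nontransgenic hearts (background 0.0945%), of the HRC variant with nontransgenic hearts (0.0775%) and of the compound with the HRC variant hearts (0.389%).

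The row of Mrps6 (GRCm38.p6, chromosome 16, plus strand) starts at the same base as that of Slc5a3, which encodes a sodium-dependent inositol transporter, and the Mrps6 start used for the printed promoter lies in the same GC-rich stretch. Slc5a3 had 3.73, 3.04 and 3.45 CPM with the deletion, 5.39, 5.18 and 2.44 with the HRC variant, 1.44, 2.58 and 1.68 in compound and 5.48, 3.90 and 3.51 in nontransgenic hearts. It too was lower by sign in compound hearts, with log2 differences of -1.04 (SE 0.43) against nontransgenic hearts, -0.72 (SE 0.42) against the deletion and -1.19 (SE 0.36) against the HRC variant (edgeR adjusted p = 0.712, 0.903 and 0.638). Slc5a3 averaged 63.8 reads per library and Mrps6 494, and no source used here says how reads of the shared stretch were divided, so the values of both are uncertain. Atrial muscle markers also moved with compound hearts: Sln, Myl7, Myl4, Nppa and Bmp10 summed to 131, 140 and 415 CPM there, to 6120, 3250 and 5260 with the deletion, to 8740, 2870 and 191 with the HRC variant and to 3040, 8800 and 5410 in nontransgenic hearts. Bmp10 had no read in compound replicate 3, and the other 4 had reads in every library. HRC variant replicate 3, in which atrial markers were as low as in compound hearts, had 23.4 CPM of Mrps6, the lowest of its group and above all 3 compound hearts. Fibroblast markers (all 5 with reads in every library) summed to 1100, 1120 and 1010 CPM in compound hearts, to 1680, 1730 and 1610 with the deletion, to 2140, 1330 and 1030 with the HRC variant and to 1180, 1490 and 1460 in nontransgenic hearts. The compound hearts lay below all deletion and nontransgenic hearts in this sum. HRC variant hearts had the same order in it as in Mrps6, while deletion, compound and nontransgenic hearts did not. HRC variant replicate 3, at 1030 CPM, lay within the range of the compound hearts in this sum but above them in Mrps6. Macrophage markers (all 5 with reads in every library) summed to 134, 142 and 130 CPM in compound hearts, to 175, 209 and 196 with the deletion, to 248, 124 and 116 with the HRC variant and to 163, 198 and 147 in nontransgenic hearts, again with all compound hearts below the deletion and nontransgenic ones. HRC variant replicates 2 and 3, at 124 and 116 CPM, lay below all compound hearts in the macrophage sum, yet above them in Mrps6 (26.0 and 23.4 CPM). The part of atrial tissue, fibroblasts and macrophages in the Mrps6 values was not tested.

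**Figure D5:**
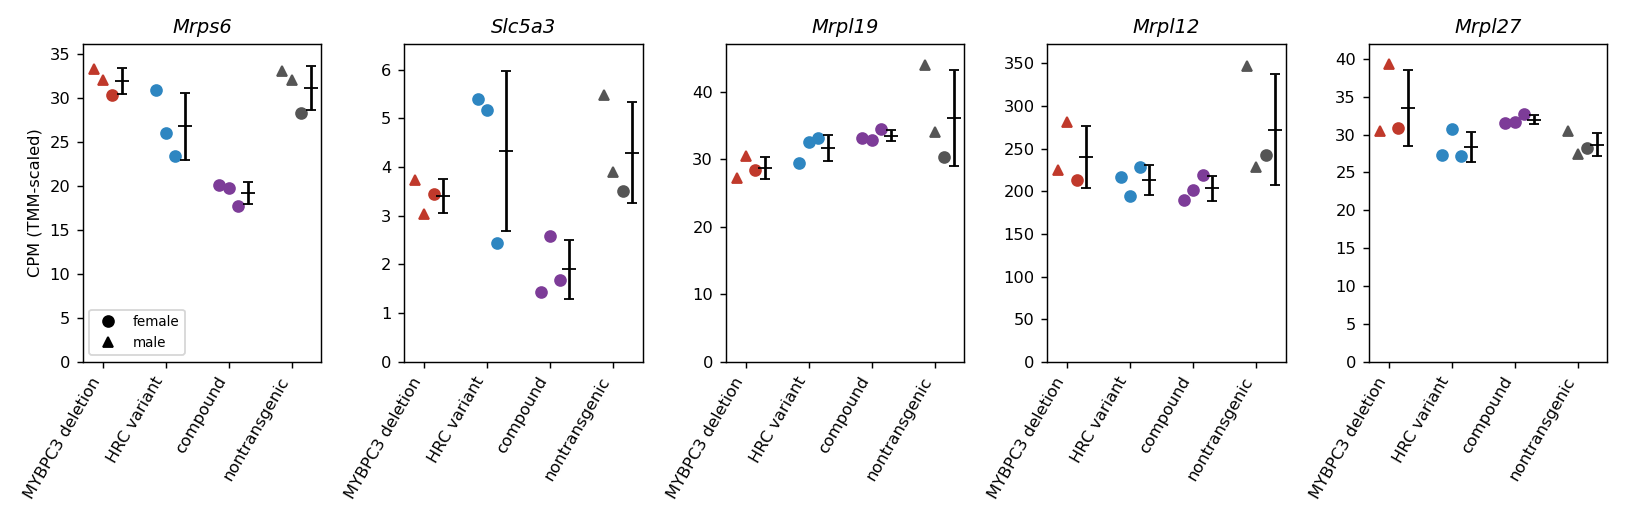
CPM in each heart (circles female, triangles male) with the mean and SD of each group beside them (n = 3) for Mrps6, its overlapping neighbor Slc5a3, Mrpl19, Mrpl12 and Mrpl27. Mrps6 lies between 17.7 and 20.1 CPM in compound hearts and between 23.4 and 33.3 in all others, while Mrpl12 is drawn up by 1 nontransgenic male at 347 CPM.

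The rest of the machinery of mitochondrial translation was read from 82 tested genes in 5 lists: 5 ribosomal subunits without an Mrp symbol, 27 assembly and rRNA factors, 17 translation factors, 20 mitochondrial aminoacyl-tRNA synthetases and 13 genes of mitochondrial transcription and RNA processing. EdgeR called 0 of the 82 in every comparison, as did DESeq2, with the backgrounds given above. With the MYBPC3 deletion the median log2 difference against nontransgenic hearts was -0.09, with 26 higher and 56 lower by sign, and 13 were lower and 2 higher at an unadjusted edgeR p under 0.05 (background 5.22% and 2.94%). The mean log2 CPM of the 82 genes, relative to each gene's 12-library mean, was -0.03, -0.08 and -0.09 in deletion hearts. In nontransgenic hearts it was 0.18, -0.03 and -0.05, so nontransgenic replicate 1 stood apart. The part of that library in the median was not tested. Aars2, the alanyl-tRNA synthetase of mitochondria, had 25.9, 25.6 and 24.0 CPM with the deletion against 38.7, 31.6 and 34.3 in nontransgenic hearts (-0.47, SE 0.12; edgeR adjusted p = 0.346). Dhx30, a helicase needed for ribosome assembly, had 37.2, 33.8 and 43.6 CPM against 54.0, 51.5 and 49.2 (-0.44, SE 0.12; edgeR adjusted p = 0.357). Neither gene's groups overlapped, as was so in this direction for 5.5% of all genes. Both genes were named for the smallest p of their lists, so this gap adds no separate evidence. Mtif3, an initiation factor, differed by -0.36 (SE 0.13), Supv3l1, an RNA helicase of the mitochondrial degradosome, by -0.30 (SE 0.12) and Chchd1, a small-subunit protein, by 0.31 (SE 0.16).

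In compound hearts the same 82 genes lay higher by sign, with a median of 0.09 against nontransgenic hearts (61 higher, 21 lower) and of 0.20 against the deletion (72 higher, 10 lower), and the interaction had a median of 0.18 (65 higher, 17 lower). At an unadjusted edgeR p under 0.05, 4 were higher against nontransgenic hearts (background 2.14%), 6 against the deletion (background 2.34%) and 10 in the interaction (background 4.49%), and 0 were lower in each. The synthetases had the largest medians of the 5 lists in these comparisons, 0.15, 0.27 and 0.32. Without the sex term the medians of the 82 genes were 0.02, 0.12 and 0.18 and those of the synthetases 0.03, 0.20 and 0.31, and the translation factors, at 0.04, then led against nontransgenic hearts. Over tested genes, the Spearman rho of a gene's change with its transcript length was 0.31, 0.09 and 0.32 in the compound libraries. It was -0.30, -0.47 and 0.22 in the deletion libraries and -0.41, 0.16 and 0.26 in the nontransgenic ones. The part of this length trend in the medians of the 82 genes was not tested. Aars2 had 33.1, 30.0 and 32.0 CPM in compound hearts and Dhx30 52.1, 49.7 and 46.8, above all 3 deletion hearts in each case, as was so for 11.5% of all genes. The gene with the smallest p against nontransgenic hearts was, in each list, Tfb2m, a mitochondrial transcription factor (0.38, SE 0.15), Metap1d, a methionine aminopeptidase (0.40, SE 0.16), Rpusd4, a pseudouridine synthase of the large rRNA (0.43, SE 0.20), Lars2, the leucyl-tRNA synthetase (0.35, SE 0.27), and Chchd1 (0.27, SE 0.19), with edgeR adjusted p from 0.688 to 0.923. Lars2 was at 0.09 without nontransgenic replicate 3, and Chchd1, with means of 44.8 CPM in compound and 47.1 in nontransgenic hearts, at -0.07 without the sex term. With the HRC variant the median of the 82 was 0.00 (42 higher, 40 lower), with 1 gene in each direction at an unadjusted edgeR p under 0.05 (background 3.29% and 2.95%). Slirp, which keeps mitochondrial mRNAs stable, was the 1 higher, with 28.0, 25.2 and 25.9 CPM against 33.5, 22.6 and 16.5 in nontransgenic hearts (0.67, SE 0.22 with the sex term, 0.13 without), and Mettl15, a methyltransferase of the small rRNA, the 1 lower (-0.79, SE 0.27; -0.48 without). Mettl15 had 5.49, 8.63 and 6.55 CPM with the variant against 6.97, 7.70 and 14.1 in nontransgenic hearts, and its log2 difference was -0.20 without nontransgenic replicate 3. Vars2, Supv3l1 and Chchd1 led the other lists, at -0.28 (SE 0.14), -0.23 (SE 0.14) and 0.25 (SE 0.19), with Chchd1 at -0.10 without the sex term and at 44.0 CPM on average with the variant against 47.1.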

How the data were processed

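Per the file headers, the deposited table holds an expected count, an FPKM and a TPM value per gene and sample (TPM, as deposited, was not used), with the authors' log2 fold changes and q-values between groups. Of the deposited counts 94.3% were whole numbers. HISAT, Bowtie2, DESeq2 and the build GRCm38.p6 come from the submitters' processing notes; no source used here gives the counting tool or its strand setting. Counts were rounded. Genes were kept by edgeR 4.0.16 (R 4.3.3) with a minimum count of 10 (13849 genes, 3530 removed, all 78 kept), scaled by TMM and fitted by a robust quasi-likelihood model over 12 libraries with group and sex (7 residual degrees of freedom), with Benjamini-Hochberg adjustment over all genes tested at 0.05. DESeq2 1.42.0 and limma-voom (limma 3.58.1) were alternatives, and the tests were checked on simulated counts. DESeq2 gave an adjusted p to 5790 genes in the interaction, to 12769 for the deletion against nontransgenic hearts and to 13843 in the other comparisons. Its backgrounds are shares of these genes, and a gene without an adjusted p could not be called. Log2 CPM used a prior count of 2. Transcript length was derived from the deposited FPKM and counts; the length trend was a lowess of span 0.5 per library. The members and lists were chosen with earlier results of these data known. Named genes were, by rule, any called member, the 2 higher and 2 lower members with the smallest p per comparison, the 5 highest and 3 lowest levels, the 2 largest and 2 smallest coefficients of variation, a set of genes of known disease or function, and the gene with the smallest p per list and comparison with nontransgenic hearts. A deposited symbol altered to a date by a spreadsheet was restored from its identifier (25 genes). Motifs were searched with exact letters on both strands.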

Additional observations from a re-analysis of the deposited data

How the results depend on the processing

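The count of called genes was 0 of 78, and 0 of the 82 pathway genes, in all 6 contrasts under these alternative runs: no sex term, DESeq2, limma-voom, other scalings, other filters, the replicate block, each library left out in turn, and nontransgenic replicate 1 with MYBPC3 deletion replicate 2 left out (added after seeing the data). Most of the runs by edgeR and limma-voom called 0 of all genes tested, so a count of 0 there says little about the 78. A run on females only left 1 library each in the deletion and nontransgenic groups, so its calls are not given. Without the sex term the medians moved to -0.18 for the HRC variant and -0.19 for compound hearts against nontransgenic hearts, and to -0.16 for compound hearts against the deletion; the sex term is what that alternative removes. Under the same setting Mrpl57 turned to -0.17 and -0.21 and Mrps14 to -0.02 and -0.03 in the HRC variant and compound hearts against nontransgenic hearts, Mrpl28 to -0.04 in compound hearts against the deletion, and Chchd1 to -0.10 and -0.07 against nontransgenic hearts. With a library left out in turn the medians ranged from -0.16 to 0.13 for the deletion, -0.03 to 0.12 for the HRC variant and -0.01 to 0.14 for compound hearts against nontransgenic hearts, 0.00 to 0.14 against the deletion, -0.05 to 0.08 against the HRC variant and -0.13 to 0.18 for the interaction: the sign turned without nontransgenic replicate 1 (deletion 0.13, interaction -0.13), MYBPC3 deletion replicate 1 (0.03 and -0.04), nontransgenic replicate 2 (HRC variant -0.02, compound -0.01), HRC variant replicate 3 (HRC variant -0.03, compound against it 0.08), HRC variant replicate 2 (interaction -0.01) or compound replicate 1 (compound against the HRC variant 0.03). Mrps6 kept its direction, from -0.64 to -0.54, from -0.66 to -0.57 and from -0.55 to -0.37 in its 3 comparisons. Removing the length trend gave medians of -0.11, -0.02, 0.02, 0.09, 0.04 and 0.16 in the order of the 6 contrasts. The replicate numbers did not pair the hearts (5 of 18 same-numbered pairs correlated above 0.1, and 2 of 12 libraries correlated best with their own number); with a replicate block the medians were -0.02, 0.12, 0.13, 0.13, 0.00 and 0.04 with 0 of the 78 called (1 gene of all tested in the interaction). Of 35 differences of named genes, 20 moved by over 1.5 times with 1 library left out, 0 turned sign and 0 were called. The interval of 1.96 SE either side of the difference lay within a 1.5-fold change for 51 (interaction) to 74 of the 78 genes.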
